A study of Mus musculus with 24 samples.

Results

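Cytosolic ribosomal proteins were followed in unloaded mouse muscle through the probe sets annotated to symbols *Rpl* or *Rps* followed by a digit, together with *Rplp0*, *Rplp1*, *Rplp2* and *Rpsa*. The *Rps6k* kinases (6 probe sets) and a pseudogene (1 probe set) were left out. Of the 22690 probe sets in the table, 100 carried 1 such gene each, and these stood for 48 of the 12394 genes so annotated, 26 of the large subunit (46 probe sets) and 22 of the small subunit (54 probe sets). A further 102 ribosomal protein probe sets are annotated with several genes and are given only as counts, and 28 ribosomal protein genes, among them *Rpl3*, *Rplp1*, *Rps15a* and *Rps21*, occur only there. Some members, among them *Rpl14*, *Rpl39*, *Rps6*, *Rps25* and *Rps27*, have probe sets of both kinds.

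The study asked which genes of disuse atrophy depend on the NF-κB subunit p50 or on its co-activator Bcl-3. The animals were 24 male mice, aged 6 weeks on purchase, of 3 genotypes: wild type B6129PF2/J, *Nfkb1-/-* (B6;129P2-Nfkb1tm1Bal/J), which lack p50 and its precursor, and *Bcl3-/-* (FVB;129P2-Bcl3tm1Ver/J), which lack Bcl-3. They either bore weight (WB) or had their hind limbs unloaded (HU) for 6 days, and total RNA of the gastrocnemius and plantaris was hybridised to 1 array per mouse, 4 mice in each of 6 groups. Both deletions are constitutive and present in every tissue, and the *Bcl3-/-* line also differs from wild type in strain background.

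The values are linear intensities, with array medians of 11.6 to 11.9 in wild type and *Nfkb1-/-* mice and of 81.1 to 86.8 in *Bcl3-/-* mice, so no level was compared between *Bcl3-/-* and the other genotypes. Neither deletion could be checked, because none of the annotated probe sets is for *Nfkb1*, and *Bcl3* would have to be read across both scales. The muscle label matched its markers: all 13 fibre genes, such as *Acta1* (8817 in WB wild type), *Ckm* (6855) and *Myh4* (5045), were measured. The number of arrays limits the precision of every value.

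The ribosome is built from a large and a small subunit, each a set of proteins arranged on ribosomal RNA, and every protein is needed in about equal number. In mammals most of these proteins are made from mRNAs that begin with a C followed by a run of pyrimidines, the terminal oligopyrimidine (TOP) tract, through which mTOR signalling sets their translation. Some members have a paralog, a second gene for a closely related protein, and several of these paralogs are used in particular tissues or states, as *Rpl3l* is in striated muscle.

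The transcription starts of 9 members are printed first, because the TOP tract lies there: *Rpl4*, *Rpl13a*, *Rps18* and *Rps25*, which were called higher with unloading in all 3 genotypes, *Rplp2*, *Rpl35* and *Rps27*, each called in 2, and the paralogs *Rps27l* and *Rpl7l1*. The probe sets annotated to *Rps25* or *Rps27* alone were dim and passed the filter on low values only through the *Bcl3-/-* arrays. Both lost their *Nfkb1-/-* call with 16 added to the intensity before the log. Each runs from 15 bases before to 15 bases after the start given by RefSeq (build GRCm38.p6), in the sense of the gene, and the capitals mark the unbroken run of pyrimidines that begins at the first transcribed base.
Rpl4 (chr9:64173372-64173401, + strand): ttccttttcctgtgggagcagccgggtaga
Rpl13a (chr7:45128731-45128760, - strand): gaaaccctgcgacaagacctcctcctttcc
Rps25 (chr9:44407699-44407728, + strand): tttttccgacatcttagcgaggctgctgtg
Rplp2 (chr7:141447636-141447665, + strand): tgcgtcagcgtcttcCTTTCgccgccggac
Rps18 (chr17:33955651-33955680, - strand): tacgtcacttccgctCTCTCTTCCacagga
Rpl35 (chr2:39005117-39005146, - strand): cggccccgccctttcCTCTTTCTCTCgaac
Rps27 (chr3:90213634-90213663, - strand): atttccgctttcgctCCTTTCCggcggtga
Rps27l (chr9:66946071-66946100, + strand): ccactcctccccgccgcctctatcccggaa
Rpl7l1 (chr17:46782642-46782671, - strand): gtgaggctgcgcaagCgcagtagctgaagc

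Of the 4 genes called in all 3 genotypes, *Rps18* alone has a TOP-like listed start, and those of *Rpl4*, *Rpl13a* and *Rps25* begin with no pyrimidine. Promoters were listed in RefSeq for 42 of the 48 genes. A C at the first base followed by 4 pyrimidines was found in 8 of the 42 (19%), against 2.67% of 17491 protein coding genes and 0 of 69 mitochondrial ribosomal protein genes. A pyrimidine run of at least 8 bases within 10 bases of the start was present in 15 of 42 (35.7%, against 8.79% of all). The listed starts can lie several bases from the start used in muscle, and no match means only that these letters are absent at the listed position.

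Over the whole window of 250 bases before to 50 bases after the start, the letters CCGGAAG on either strand, a sequence bound by ETS family factors, were found in 21 of 42 promoters (50%, against 12.9%), and AAGATGG on either strand, the core of the YY1 motif, in 7 (16.7%, against 7.18%). TATAAA between 40 and 15 bases before the start was found in 1 (2.38%, against 3.06%). The κB consensus, the binding motif of NF-κB, matched on either strand in 3 promoters, those of *Rpl3l*, *Rpl6* and *Rps19* (7.14%, against 10.5%). Neither *Rps27l* start had a κB match in its window. Of the 8 genes with a TOP-like start, all of them tested, the number that rose with unloading was 3 in wild type, 4 in *Nfkb1-/-* muscle and 3 in *Bcl3-/-*. Of the 33 tested without it, the numbers were 9, 4 and 14.

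Of the 100 probe sets, 94 passed the filter on low values (intensity above 20 on at least 4 of the 24 arrays), and these cover 47 genes. *Rpl39l*, the paralog of *Rpl39* known from testis, was the gene not tested, with no array above 20. The other 5 probe sets that did not pass belong to *Rps18*, *Rps20*, *Rps6* and *Rpsa*, which have brighter probe sets. Of the 94, 19 passed only through the *Bcl3-/-* arrays, with fewer than 4 of the 16 wild type and *Nfkb1-/-* arrays above 20, and they are the representative probe sets of 7 genes (*Rpl12*, *Rpl14*, *Rpl27a*, *Rpl39*, *Rps25*, *Rps27* and *Rps4l*). On the 16 wild type and *Nfkb1-/-* arrays alone, 75 of the 94 passed. With the filter applied to the genotypes compared, higher calls numbered 36 for wild type and 15 for *Nfkb1-/-*. Neither the number tested in each nor the share called among all probe sets under this filter is given here. These 2 counts therefore have no background to be set against. Where a gene has several probe sets, the brightest by mean log2 intensity stands for it below, changes are HU minus WB differences of log2 intensity, and a call is an adjusted p under 0.05 in limma over all 19294 probe sets tested.

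Unloading raised ribosomal protein transcripts by a small amount in wild type muscle. The median log2 change over the 47 genes was 0.21 (1.15-fold), against -0.01 over all 11098 genes tested, and 43 of 47 changes were positive. By gene, 13 were called higher and 0 lower, where 2.18% of all genes were called higher and 1.75% lower. By probe set, 24 of 94 were called higher and 0 lower (background 2.31% higher and 1.66% lower). The HU arrays all lay above the WB arrays in 50 of 94 probe sets and all below in 1 (background 5.86% and 4.89%).

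In *Bcl3-/-* muscle the rise was of like size. The median log2 change was 0.22 (1.17-fold), against 0.01 over all genes, and 44 of 47 changes were positive. By gene, 20 were called higher and 0 lower, where 7.5% of all genes were called higher and 2.99% lower. By probe set, 35 were called higher and 1 lower (background 7.59% and 2.81%), and 60 of 94 had all HU arrays above all WB arrays and 1 all below (background 11.4% and 4.07%).

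In *Nfkb1-/-* muscle fewer members were called. The median log2 change was 0.14 (1.10-fold), against -0.003 over all genes, and 38 of 47 changes were positive. By gene, 8 were called higher and 1 lower, where 5.22% of all genes were called higher and 7.02% lower. By probe set, 11 were called higher and 2 lower (background 4.79% and 6.59%), and 23 of 94 had all HU arrays above all WB arrays and 4 all below (background 7.71% and 10.9%).

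The counts depend on the test far more than the medians do. Fitted on the arrays of 1 genotype at a time, 3 probe sets were called higher in wild type, 7 in *Nfkb1-/-* muscle and 15 in *Bcl3-/-*. In that fit the wild type calls of *Rpl4*, *Rpl11*, *Rpl13a*, *Rpl22*, *Rpl35*, *Rps18*, *Rps19* and *Rps27l* were lost. Their limma adjusted p ran from 0.0567 to 0.117. So were the *Bcl3-/-* calls of *Rpl4*, *Rpl11*, *Rpl13a*, *Rpl27*, *Rpl37a*, *Rps27*, *Rps4x* and *Rpsa* (0.0535 to 0.133). The *Nfkb1-/-* calls of *Rplp2* and *Rps18* were lost too (0.05065 and 0.05235). The methods' t-test, run on linear intensities, gave 0, 6 and 6 after Benjamini-Hochberg adjustment, and 49, 28 and 65 at an unadjusted p under 0.05. The wild type count fell from 24 to 14 without HU replicate 1 and likewise to 14 without WB replicate 2. The *Nfkb1-/-* count fell from 11 to 4 without HU replicate 2, to 7 without HU replicate 3 or WB replicate 1, and to 6 without WB replicate 2 or WB replicate 4.

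**Figure D1:**
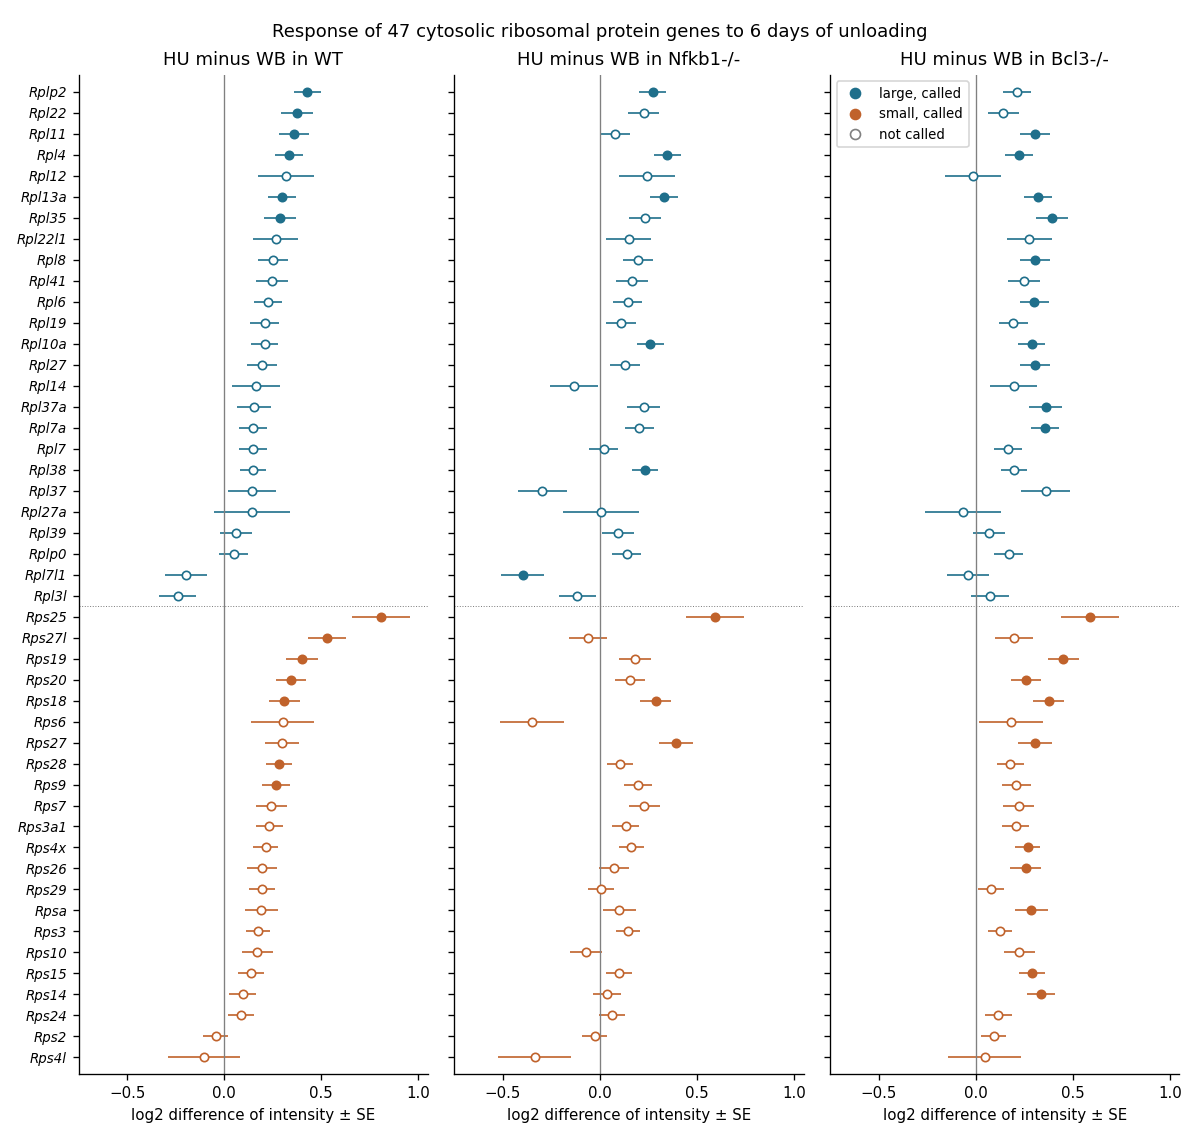
Log2 difference of intensity between HU and WB arrays (x axis, points with SE) of the 47 tested genes (y axis, large subunit above the dotted line and small subunit below it, ordered by the wild type value), with 1 panel per genotype and filled points for genes called by limma. Most points lie to the right of 0 in each panel, with 13 genes called higher in wild type, 8 in *Nfkb1-/-* muscle and 20 in *Bcl3-/-* and only *Rpl7l1* called lower, in *Nfkb1-/-* muscle.

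The large and the small subunit changed by much the same amount. In wild type muscle the median log2 change was 0.21 over 25 large subunit genes (6 called higher) and 0.22 over 22 small subunit genes (7 called higher). In *Bcl3-/-* muscle both medians were 0.22, with 10 genes of each subunit called higher. In *Nfkb1-/-* muscle the medians were 0.15 for the large subunit (5 called higher, 1 lower) and 0.10 for the small subunit (3 called higher).

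The same comparison was made array by array, as the mean log2 intensity over the genes of a subunit minus the WB mean of the genotype. For the large subunit, the 4 wild type HU arrays had 0.30, 0.11, 0.14 and 0.20 and the WB arrays lay between -0.05 and 0.05. For the small subunit, the wild type HU arrays had 0.36, 0.16, 0.21 and 0.24 and the WB arrays lay between -0.05 and 0.04. Every wild type HU array was above every WB array for both subunits, and replicate 1 was the highest for both.

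On the *Nfkb1-/-* HU arrays the large subunit had 0.02, 0.15, 0.24 and 0.05 and the small subunit had 0.01, 0.16, 0.16 and 0.05. Replicates 2 and 3 stood apart from replicates 1 and 4, and replicate 1 lay within the range of the WB arrays (to 0.03 for the large and to 0.02 for the small subunit). On the *Bcl3-/-* HU arrays the large subunit had 0.26, 0.17, 0.19 and 0.24 and the small subunit had 0.28, 0.22, 0.24 and 0.22. All of these lay above the *Bcl3-/-* WB arrays, which reached 0.05 and 0.06.

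The large minus small difference of these array means was -0.05 ± 0.01 (SD, n = 4) in wild type HU muscle, 0.02 ± 0.04 in *Nfkb1-/-* and -0.03 ± 0.03 in *Bcl3-/-*. The SD of the same difference among WB arrays was 0.04 in wild type, 0.03 in *Nfkb1-/-* muscle and 0.03 in *Bcl3-/-*. In *Nfkb1-/-* and *Bcl3-/-* muscle the difference was within 1 SD of 0, and in wild type muscle all 4 HU arrays were negative (-0.07 to -0.04) inside or just beyond the range of the WB arrays (-0.05 to 0.04).

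**Figure D2:**
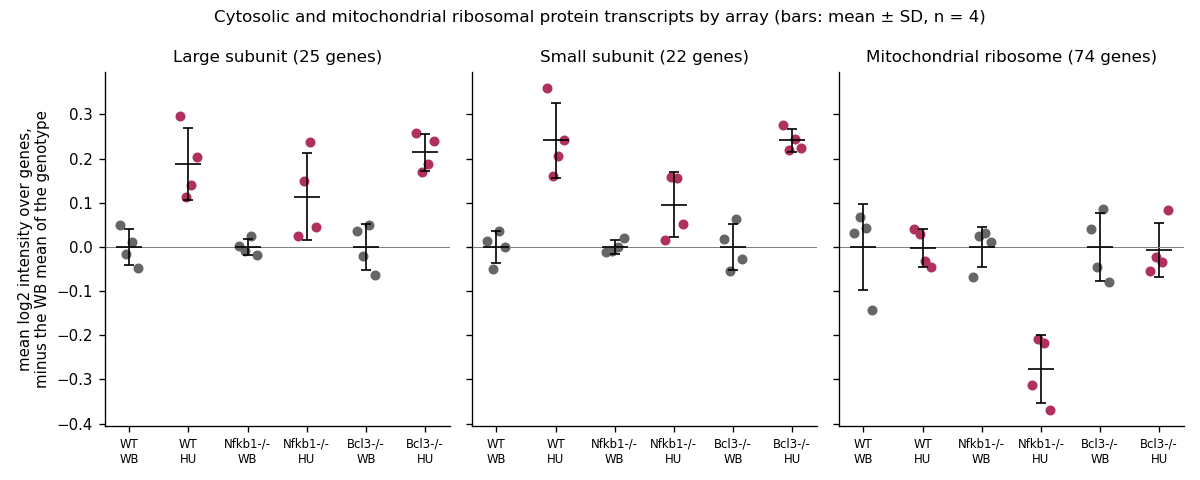
Mean log2 intensity over the genes of each list minus the WB mean of the same genotype (y axis) for each array (points) of the 6 groups (x axis), with mean and SD of 4 arrays, for the large subunit, the small subunit and the mitochondrial ribosome. HU arrays lie above WB arrays for both cytosolic subunits in wild type and *Bcl3-/-* muscle and overlap them in *Nfkb1-/-* muscle, where the mitochondrial ribosome lies lower, at -0.37 to -0.21.

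Among the stalk proteins, which recruit the elongation factors to the large subunit, *Rplp2* was called higher in wild type and in *Nfkb1-/-* muscle. Its intensity in wild type was 1299, 1417, 1493 and 1394 on the WB arrays and 2003, 1731, 1914 and 1895 on the HU arrays. In *Nfkb1-/-* it was 1359, 1340, 1465 and 1338 with WB and 1586, 1760, 1757 and 1543 with HU. In *Bcl3-/-* it was 7971, 7795, 8401 and 7841 with WB and 9395, 9109, 9272 and 9300 with HU. The groups did not overlap in any genotype. The log2 change was 0.43 ± 0.07 (SE, limma adjusted p = 0.00144) in wild type, 0.27 ± 0.07 (adjusted p = 0.0137) in *Nfkb1-/-* and 0.21 ± 0.07 (adjusted p = 0.0552, not called) in *Bcl3-/-*. The *Nfkb1-/-* call was lost without HU replicate 2 (adjusted p = 0.0529).

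*Rplp0*, the protein that anchors the stalk to the ribosome, was not called in any genotype, with log2 changes of 0.05 ± 0.08 in wild type, 0.14 ± 0.08 in *Nfkb1-/-* muscle and 0.17 ± 0.08 in *Bcl3-/-*. Its wild type arrays overlapped (1810 to 2094 with WB and 1856 to 2262 with HU). The 95% interval of its wild type change was -0.11 to 0.20, while that of *Rplp2* was 0.28 to 0.57.

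Of the large subunit body, *Rpl4*, whose loop lines the exit tunnel for the growing peptide, was called higher in each genotype. Its wild type intensity was 1831, 1833, 1825 and 1780 with WB and 2528, 1995, 2378 and 2295 with HU. In *Nfkb1-/-* it was 1742, 1809, 1786 and 1658 with WB and 2049, 2243, 2393 and 2226 with HU. In *Bcl3-/-* it was 7748, 7758, 7570 and 7462 with WB and 8900, 8930, 8879 and 8899 with HU. No HU array fell within the WB range in any of the 3 genotypes. The change amounted to a log2 value of 0.33 ± 0.07 (limma adjusted p = 0.00885) in wild type, 0.35 ± 0.07 (adjusted p = 0.00253) in *Nfkb1-/-* and 0.22 ± 0.07 (adjusted p = 0.0493) in *Bcl3-/-*. The *Bcl3-/-* call was lost when any 1 of the 8 *Bcl3-/-* arrays was left out (adjusted p of 0.0687 to 0.104), when many of the arrays of other genotypes were, and with each array centred on its median (adjusted p = 0.0902).

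*Rpl13a*, a large subunit protein also known outside the ribosome as a repressor of inflammatory mRNAs, was the other large subunit gene called higher in all 3 genotypes. The wild type WB arrays had 1023, 1002, 1131 and 1162 and the HU arrays had 1434, 1227, 1315 and 1330. In *Nfkb1-/-* muscle the WB arrays had 997.8, 1056, 1035 and 987.7 and the HU arrays had 1213, 1263, 1304 and 1346. In both, every HU array was above every WB array. On the log2 scale the change was 0.30 ± 0.07 (limma adjusted p = 0.0203) in wild type, 0.33 ± 0.07 (adjusted p = 0.00428) in *Nfkb1-/-* and 0.32 ± 0.07 (adjusted p = 0.00732) in *Bcl3-/-*. The wild type call did not hold without HU replicate 1, 3 or 4 or without WB replicate 1 or 2 (adjusted p of 0.0518 to 0.0778).

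*Rpl11*, which carries the small RNA of the large subunit and also binds the p53 regulator Mdm2, was called higher in wild type and *Bcl3-/-* muscle. Its wild type intensity was 788.8, 756.1, 787.2 and 730.2 with WB and 1114, 900.3, 954.6 and 964.9 with HU. *Nfkb1-/-* arrays had 761.8, 751.7, 767.4 and 738.9 with WB and 787.1, 818.2, 884.3 and 709.1 with HU. The groups were separate in wild type, and in *Nfkb1-/-* HU replicate 4 was below all WB arrays. The fitted log2 change was 0.36 ± 0.08 (limma adjusted p = 0.00932) in wild type, 0.08 ± 0.08 (adjusted p = 0.614) in *Nfkb1-/-* and 0.30 ± 0.08 (adjusted p = 0.0146) in *Bcl3-/-*. Both calls were lost with limma fitted on 1 genotype at a time (adjusted p = 0.0759 and 0.0613). The methods' t-test called neither (adjusted p = 0.304 and 0.0902). The difference between the wild type and *Nfkb1-/-* responses, 0.28 (95% interval 0.05 to 0.51), was not called (adjusted p = 0.297).

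Other large subunit genes were called in fewer genotypes. *Rpl35*, which sits at the tunnel exit, had log2 changes of 0.29 ± 0.08 (limma adjusted p = 0.0461) in wild type, 0.23 ± 0.08 (adjusted p = 0.0678, not called) in *Nfkb1-/-* and 0.39 ± 0.08 (adjusted p = 0.00373) in *Bcl3-/-*. The wild type call of this probe set was lost without any 1 of 7 of the 8 wild type arrays, the exception being HU replicate 2, and without several arrays of the knockouts, although 4 further *Rpl35* probe sets were also called in wild type. *Rpl37a*, a zinc finger protein of the large subunit, was called in *Bcl3-/-* muscle only (0.36 ± 0.09, adjusted p = 0.00955). *Rpl27* rose in *Bcl3-/-* (0.30 ± 0.08, adjusted p = 0.0128) and had 0.20 in wild type and 0.13 in *Nfkb1-/-*, neither called. *Rpl6*, *Rpl7a* and *Rpl8* were likewise called in *Bcl3-/-* muscle only, *Rpl10a* in both knockouts and *Rpl38* in *Nfkb1-/-* only. *Rpl14* was dim on its representative probe set (6.66 ± 0.764 in WB wild type, SD, n = 4) and not called there. Its probe sets annotated with several genes are given only in the counts.

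In the small subunit, *Rps18*, a protein of its head, was called higher in each genotype. Its wild type intensity was 913, 983.1, 1037 and 1008 with WB and 1291, 1099, 1234 and 1265 with HU. In *Nfkb1-/-* it was 943.3, 911.2, 949.9 and 894.8 with WB and 1084, 1160, 1271 and 1017 with HU. In *Bcl3-/-* it was 5687, 4755, 5532 and 5150 with WB and 7165, 6785, 6807 and 6621 with HU. HU was above WB on every array in all 3. The log2 change was 0.31 ± 0.08 (limma adjusted p = 0.027) in wild type, 0.29 ± 0.08 (adjusted p = 0.0201) in *Nfkb1-/-* and 0.38 ± 0.08 (adjusted p = 0.00459) in *Bcl3-/-*. The wild type call was lost without HU replicate 1, 3 or 4 or WB replicate 1 or 2 (adjusted p of 0.0661 to 0.0883), and the *Nfkb1-/-* call without HU replicate 2 or 3 or WB replicate 2 or 4 (adjusted p of 0.0526 to 0.0862).

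*Rps19*, needed for maturation of the small subunit RNA and mutated in an inherited anaemia, was called higher in wild type and *Bcl3-/-* muscle. In wild type it read 546.9, 491.3, 538.8 and 492.3 with WB and 761.6, 602.2, 660.5 and 712.1 with HU. *Nfkb1-/-* muscle read 510, 524.7, 534.5 and 511.4 with WB and 556.7, 619.8, 642.4 and 543.1 with HU. In *Bcl3-/-* it read 2784, 2686, 3120 and 2735 with WB and 4154, 3901, 3740 and 3687 with HU. HU arrays were above WB arrays throughout, by the least in *Nfkb1-/-* muscle. The change amounted to a log2 value of 0.40 ± 0.08 (limma adjusted p = 0.00651) in wild type, 0.18 ± 0.08 (adjusted p = 0.174, not called) in *Nfkb1-/-* and 0.45 ± 0.08 (adjusted p = 0.00147) in *Bcl3-/-*. Fitted on the wild type arrays alone, the wild type call was lost (limma adjusted p = 0.0675). The methods' t-test called neither wild type nor *Bcl3-/-* (adjusted p = 0.2875 and 0.0588). The wild type and *Nfkb1-/-* responses differed by 0.22 (95% interval -0.02 to 0.46), which was not called (adjusted p = 0.45).

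*Rps25*, which lies near the exit site and is used in internal ribosome entry, was measured by a dim probe set that passed the filter only through the *Bcl3-/-* arrays, and was called higher in each genotype. Its wild type intensity was 10.0, 9.67, 11.8 and 10.1 with WB and 20.5, 15.3, 21.5 and 16.2 with HU. *Nfkb1-/-* arrays read 10.2, 10.9, 11.9 and 16.6 with WB and 14.9, 23.8, 18.8 and 17.1 with HU. In *Bcl3-/-* it was 111.3, 91.6, 100.9 and 105.6 with WB and 151.6, 134.1, 146.5 and 185.8 with HU. The groups were separate in wild type and *Bcl3-/-* and overlapped in *Nfkb1-/-* at WB replicate 4 and HU replicate 1. On the log2 scale the change was 0.81 ± 0.15 (limma adjusted p = 0.00328) in wild type, 0.59 ± 0.15 (adjusted p = 0.0108) in *Nfkb1-/-* and 0.59 ± 0.15 (adjusted p = 0.0144) in *Bcl3-/-*. The *Nfkb1-/-* call was lost without HU replicate 2 or WB replicate 1 (adjusted p = 0.0562 and 0.0509), and the *Bcl3-/-* call without HU replicate 4 (adjusted p = 0.0528). Only 3 of the 16 wild type and *Nfkb1-/-* arrays were above 20. With 16 added to the intensity before the log, the change was 0.38 in wild type (called), 0.29 in *Nfkb1-/-* (adjusted p = 0.0563, not called) and 0.52 in *Bcl3-/-* (called). Another probe set, which lists *Rps25* with other genes, is given only in the counts.

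Further small subunit genes called in wild type muscle were *Rps20*, *Rps28* and *Rps9*, with log2 changes of 0.34, 0.28 and 0.27. *Rps20* was also called in *Bcl3-/-* (0.26). *Rpsa*, also known as a laminin receptor, was called in *Bcl3-/-* muscle only (0.29 ± 0.09, limma adjusted p = 0.0327), a call lost without HU replicate 1, 2 or 3 or WB replicate 2 or 4, and with array weights or centring on array medians (adjusted p = 0.0725 and 0.0549). *Rps6*, the substrate of the S6 kinases, was dim on its representative probe set (20.8 ± 4.92 in WB wild type) and not called. Its log2 changes there were 0.30 in wild type, -0.35 in *Nfkb1-/-* muscle and 0.18 in *Bcl3-/-*. Further *Rps6* probe sets, annotated with several genes, are given only in the counts. *Rps14*, *Rps15*, *Rps26* and *Rps4x* were called higher in *Bcl3-/-* muscle only.

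**Figure D3:**
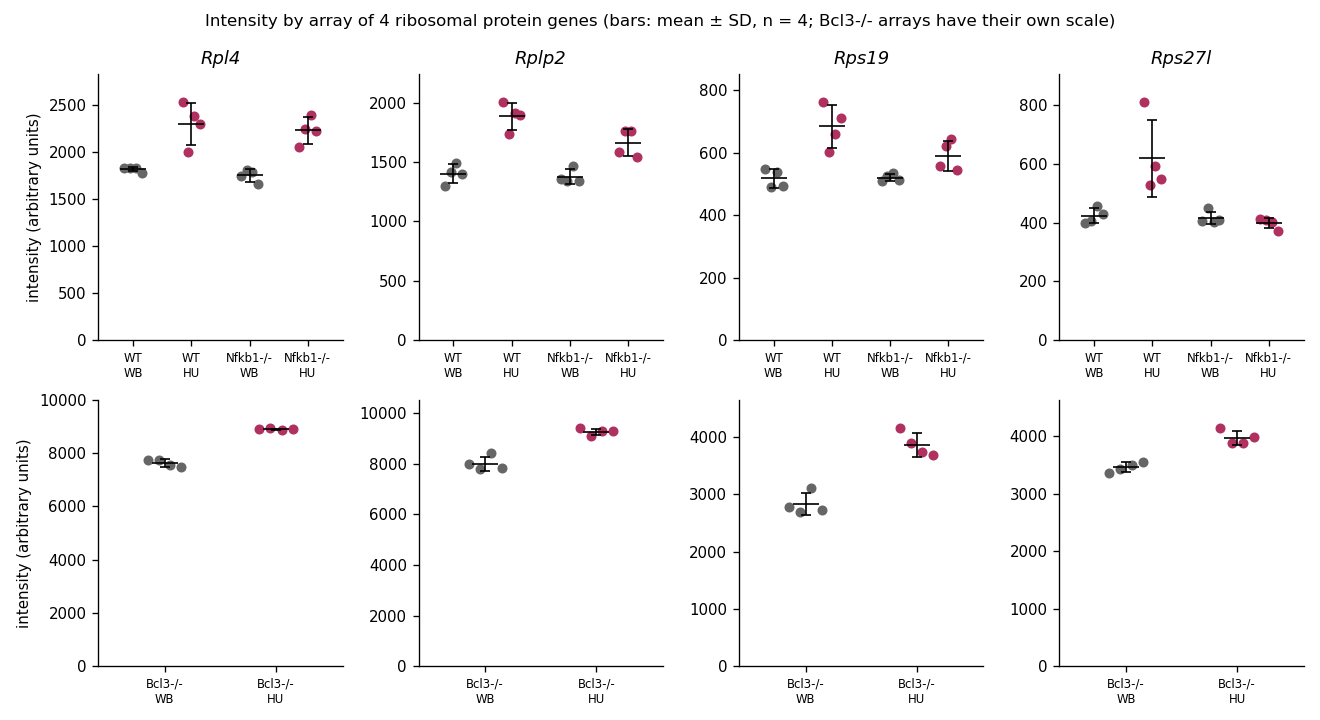
Intensity (y axis, arbitrary units from 0) on each array (points) by group (x axis), with mean and SD of 4 arrays, for *Rpl4*, *Rplp2*, *Rps19* and *Rps27l*; the *Bcl3-/-* arrays are in the lower row on their own scale. HU lies above WB for *Rpl4*, *Rplp2* and *Rps19* in every genotype, while the *Rps27l* HU arrays of *Nfkb1-/-* muscle (372.1 to 412) lie within or below the WB range.

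*Rps27l*, the paralog of *Rps27* and a known target of p53, had the response that differed most between wild type and *Nfkb1-/-* muscle among the representative probe sets with a mean log2 intensity of at least 7. Its representative probe set had 400.2, 405.5, 456.2 and 429.4 on the wild type WB arrays and 810.7, 526.7, 591.8 and 547.7 on the HU arrays. In *Nfkb1-/-* it had 406.1, 448.3, 401.1 and 410.4 with WB and 412, 409.5, 402.3 and 372.1 with HU. In *Bcl3-/-* it had 3366, 3436, 3502 and 3556 with WB and 4140, 3882, 3880 and 3989 with HU. Wild type HU replicate 1 was far above the other HU arrays, all of which were still above WB, and in *Nfkb1-/-* muscle the groups overlapped. The fitted log2 change was 0.53 ± 0.10 (limma adjusted p = 0.00299) in wild type, -0.06 ± 0.10 (adjusted p = 0.782) in *Nfkb1-/-* and 0.20 ± 0.10 (adjusted p = 0.198) in *Bcl3-/-*. The wild type call was lost with limma fitted on the wild type arrays alone (adjusted p = 0.0741) and in the methods' t-test (adjusted p = 0.399).

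Its other probe sets gave like values, 0.57 and 0.52 in wild type (both called) and between -0.07 and -0.05 in *Nfkb1-/-*, and they may read the same transcript. The difference between the wild type and *Nfkb1-/-* responses was 0.59 ± 0.14 on the representative probe set (95% interval 0.31 to 0.87), with an adjusted p of 0.0693 in limma, and 0.62 and 0.59 on the others (adjusted p = 0.0548 and 0.111), so it was not called. It was called on 2 of the 3 probe sets when only probe sets above 20 on 4 arrays of these genotypes were tested (adjusted p = 0.0293 and 0.0379). Without wild type HU replicate 2, adjusted p was 0.0408 and 0.049 on those probe sets, and 1 of them was called without wild type WB replicate 3 (0.0497) or *Bcl3-/-* WB replicate 2 (0.0447). Without wild type HU replicate 1 the difference on the representative probe set was 0.46 (adjusted p = 0.0881). The difference from the *Bcl3-/-* response was 0.33 (95% interval 0.05 to 0.62, adjusted p = 0.276). The wild type arrays enter both differences.

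*Rps27* itself was measured by a dim probe set, with 8.41 ± 0.341 in WB and 10.4 ± 1.02 in HU wild type muscle (SD, n = 4) and 0 of 16 wild type and *Nfkb1-/-* arrays above 20. It was called higher in *Nfkb1-/-* (0.39 ± 0.09, limma adjusted p = 0.00442) and in *Bcl3-/-* (0.30 ± 0.09, adjusted p = 0.0273) and missed the threshold in wild type (0.30 ± 0.09, adjusted p = 0.0553). With 16 added before the log the *Nfkb1-/-* change was 0.14 (adjusted p = 0.111) and not called. The *Bcl3-/-* call was lost without HU replicate 1 or 3 or WB replicate 1 or 4 (adjusted p of 0.0502 to 0.12). The difference between its wild type and *Nfkb1-/-* responses was -0.09 (95% interval -0.35 to 0.16). Another probe set, which lists *Rps27* with other genes, is given only in the counts.

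*Rpl7l1*, a paralog of *Rpl7* known from ribosome assembly, was the member called lower. Its representative probe set had 57.1, 58.7, 53.3 and 53.2 on the *Nfkb1-/-* WB arrays and 37.2, 46.4, 41.7 and 43.7 on the HU arrays. All HU arrays were below all WB arrays. The log2 change was -0.40 ± 0.11 (limma adjusted p = 0.0184) in *Nfkb1-/-*, -0.20 ± 0.11 (adjusted p = 0.364) in wild type and -0.04 ± 0.11 (adjusted p = 0.858) in *Bcl3-/-*. The *Nfkb1-/-* call was lost without HU replicate 1 or WB replicate 1 or 2 (adjusted p of 0.0516 to 0.0596). Its second probe set was also called lower in *Nfkb1-/-* (-0.56, adjusted p = 0.0101) and in *Bcl3-/-* (-0.44, adjusted p = 0.0437), where the first was not.

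*Rpl7*, the parent gene, had log2 changes of 0.15 in wild type, 0.02 in *Nfkb1-/-* muscle and 0.17 in *Bcl3-/-*, none called. *Rpl3l*, the striated muscle paralog of *Rpl3*, had 1145, 1168, 1076 and 1055 on the wild type WB arrays and 750.7, 1018, 1012 and 1008 on the HU arrays. The HU arrays were all lower, and replicate 1 was the lowest by far, yet the log2 change of -0.24 ± 0.10 was not called (limma adjusted p = 0.169). Its changes in *Nfkb1-/-* and *Bcl3-/-* muscle were -0.12 and 0.07.

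*Rpl22*, an RNA-binding protein of the large subunit that restrains its own paralog, was called higher in wild type (0.37 ± 0.08, limma adjusted p = 0.00927) with WB arrays of 274.4, 252.4, 258.5 and 252 and HU arrays of 360.4, 306.7, 329 and 349.9. It had 0.22 ± 0.08 in *Nfkb1-/-* and 0.14 ± 0.08 in *Bcl3-/-*, neither called, and its second probe set had -0.06 in wild type and was called in *Bcl3-/-* (0.39), so the probe sets of this gene disagree. The wild type call of the first was lost with limma fitted on the wild type arrays alone (adjusted p = 0.0567). *Rpl22l1*, the paralog, had 0.27, 0.15 and 0.28 and was not called. *Rps4x* had 0.21, 0.16 and 0.27, called only in *Bcl3-/-*, and *Rps4l*, on a dim probe set, had -0.10, -0.34 and 0.05, not called. *Rpl39* was dim on its representative probe set (15.2 ± 1.01 in WB wild type) and not called there, and another that lists it with other genes is given only in the counts. Without the 6 paralog genes, the genes called higher were 12 in wild type, 8 in *Nfkb1-/-* muscle and 20 in *Bcl3-/-*, of 42 in each.

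By representative probe set, the genes called higher in all 3 genotypes were 4, namely *Rpl4*, *Rpl13a*, *Rps18* and, on a dim probe set, *Rps25*. A further 4 (*Rpl11*, *Rpl35*, *Rps19* and *Rps20*) were called in wild type and *Bcl3-/-* and not in *Nfkb1-/-*, 4 in wild type only (*Rpl22*, *Rps27l*, *Rps28* and *Rps9*) and 10 in *Bcl3-/-* only, while 21 were not called higher in any. The classes depend on the probe set chosen: another *Rps28* probe set was called in wild type, in *Nfkb1-/-* (0.23, limma adjusted p = 0.0357) and in *Bcl3-/-* (0.29, adjusted p = 0.00983), and the second *Rpl22* probe set was called in *Bcl3-/-*. They depend on the fit as well. Fitted on 1 genotype at a time, *Rpl4*, *Rpl13a* and *Rps18* lost their wild type calls (limma adjusted p of 0.09285 to 0.1171). The share of all genes in each class is not given here. The test of the difference is what bears on these classes. Of the 94 probe sets, 0 had a called difference between the wild type and *Nfkb1-/-* responses in limma (background 0.119% higher and 0.057% lower in wild type), with 10 higher and 2 lower at an unadjusted p under 0.05. At that p, 1412 and 955 of all 19294 probe sets were higher and lower. By gene, 0 of 47 were called (background 0.135% and 0.0721%). Likewise 0 differed between wild type and *Bcl3-/-* (background 0.264% and 0.803%), with 5 and 6 at an unadjusted p under 0.05. The median difference over genes was 0.08 for wild type minus *Nfkb1-/-*, positive in 36 of 47, and -0.03 for wild type minus *Bcl3-/-*, positive in 17 of 47. Over all genes tested these medians were -0.002 and -0.02, with 49.6% and 45.5% of differences positive. The median against *Bcl3-/-* thus lay near that of all genes. Both differences use the same wild type arrays.

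Before unloading, WB *Nfkb1-/-* and WB wild type muscle had much the same ribosomal protein intensities. The median log2 difference over genes was -0.03, against -0.02 over all genes, and 1 of 94 probe sets was called higher in *Nfkb1-/-* (background 0.57%). This was 1 of the 3 probe sets of *Rps9*, a small subunit protein needed for decoding accuracy. On the WB arrays it had 142.7, 181.2, 19.4 and 17.6 in wild type and 279.7, 212.9, 204.6 and 223.4 in *Nfkb1-/-*. On the HU arrays it had 27.8, 19, 25.2 and 21.8 in wild type and 218.7, 235.6, 262.3 and 204.3 in *Nfkb1-/-*. Wild type WB replicates 1 and 2 thus lay nearer to the *Nfkb1-/-* arrays, though below them, and the other 6 wild type arrays lay far below. The log2 difference in WB muscle was 2.07 ± 0.47 (limma adjusted p = 0.0284), and the call was lost without any 1 of the 4 *Nfkb1-/-* WB arrays and without wild type WB replicate 3 or 4. The representative *Rps9* probe set had no such pattern (898.7 to 959.9 in WB wild type and 863.7 to 944.7 in WB *Nfkb1-/-*).

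**Figure D4:**
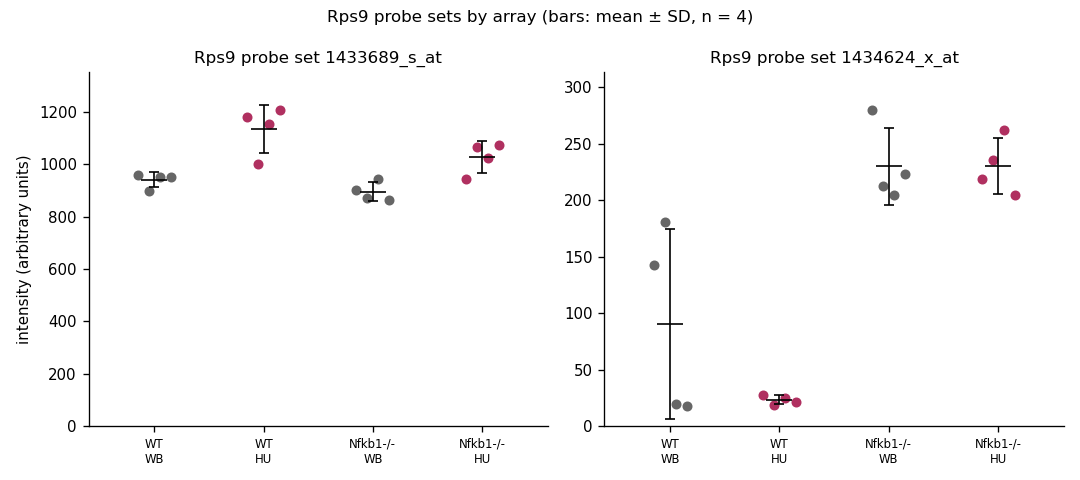
Intensity (y axis, arbitrary units from 0) on each wild type and *Nfkb1-/-* array (points) by group (x axis), with mean and SD of 4 arrays, for the representative *Rps9* probe set (left) and another one (right). On the right, wild type WB replicates 1 and 2 (142.7 and 181.2) lie nearer to, though below, the *Nfkb1-/-* arrays and the remaining 6 wild type arrays lie between 17.6 and 27.8.

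Bright probe sets were called higher more often than dim ones in wild type (32.9% against 4.17%) and *Bcl3-/-* muscle (45.7% against 12.5%). In *Nfkb1-/-* muscle the shares were alike (11.4% and 12.5%). The shares among all bright and all dim probe sets of the array are not given here. Of the 70 probe sets with a mean log2 intensity of at least 7, 23 were called higher in wild type, 8 in *Nfkb1-/-* muscle and 32 in *Bcl3-/-*, and 0 lower in any. Of the 24 dimmer ones tested, 1, 3 and 3 were called higher and 0, 2 and 1 lower. The probe sets of 1 gene agreed for some members: for *Rps28* the wild type changes of 3 probe sets ran from 0.26 to 0.28, while for *Rpl13a* those of 4 probe sets ran from -0.28 to 0.34. Many ribosomal protein probe sets can also bind transcripts of related genes or pseudogenes; on the 53 tested without the suffix that marks such probes, 11, 7 and 20 were called higher. The 99 tested probe sets annotated with several genes, which were no members, had 37, 8 and 44 called higher and median changes of 0.24, 0.10 and 0.24. Over all tested probe sets, 2.31%, 4.79% and 7.59% were called higher.

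Other genes of ribosome production were compared through lists. *Fau*, whose product includes a small subunit protein outside the symbol rule, rose in wild type (0.33 ± 0.08, limma adjusted p = 0.0219) and *Bcl3-/-* (0.35 ± 0.08, adjusted p = 0.0083) and had 0.14 ± 0.08 in *Nfkb1-/-* (adjusted p = 0.329). Of 43 ribosome biogenesis genes tested, 1 was called higher in wild type, 4 in *Nfkb1-/-* muscle and 11 in *Bcl3-/-*, with medians of 0.11, 0.06 and 0.23 (background over all genes 2.18%, 5.22% and 7.5% higher). The wild type count is thus at the background share. *Gnl3*, the nucleolar GTPase nucleostemin, was the one called in wild type (0.40 ± 0.10, adjusted p = 0.0201) and was also called in *Nfkb1-/-* (0.38). *Nop58* (0.46) and *Gar1* (0.39), parts of the complexes that modify ribosomal RNA, rose in *Bcl3-/-* muscle.

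Of 18 tested genes of elongation and other TOP mRNAs, 2 were called higher and 1 lower in wild type, 2 and 2 in *Nfkb1-/-* muscle and 5 and 0 in *Bcl3-/-*, where the background was 2.18% and 1.75%, 5.22% and 7.02%, and 7.5% and 2.99%. *Eif3f*, an initiation factor subunit, rose in all 3 genotypes, by 0.27, 0.26 and 0.44. *Pabpc4*, a poly(A) binding protein, fell by 0.33 in wild type and by 0.45 in *Nfkb1-/-*. Of 19 tested genes that control ribosomal protein synthesis, 1, 5 and 6 were called higher (background 2.18%, 5.22% and 7.5%) and 0 lower. *Eef2k*, the kinase that slows elongation, rose in all 3 (0.46, 0.48 and 0.39). *Eif4ebp1*, the mTOR target that blocks cap-dependent initiation, rose in *Nfkb1-/-* (0.76) and *Bcl3-/-* (0.96) and was not called in wild type. The paper instead lists it as raised in wild type and as a target of p50 and Bcl-3. The paper's qPCR found no rise or a lesser one in the knockouts. Of the 19 genes, 0 had a called difference in response between wild type and either knockout.

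The mitochondrial ribosomal proteins, which build the separate ribosome inside the organelle, moved otherwise. Of 74 such genes tested, 3 were called higher and 2 lower in wild type, 0 and 36 in *Nfkb1-/-* muscle and 1 and 1 in *Bcl3-/-*, with medians of 0.00, -0.28 and 0.01 (background 1.75%, 7.02% and 2.99% lower). On the *Nfkb1-/-* HU arrays their mean over genes was -0.31, -0.21, -0.22 and -0.37, below all WB arrays, and the arrays with the lowest values (replicates 1 and 4) were also those with the lowest cytosolic values.

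**Figure D5:**
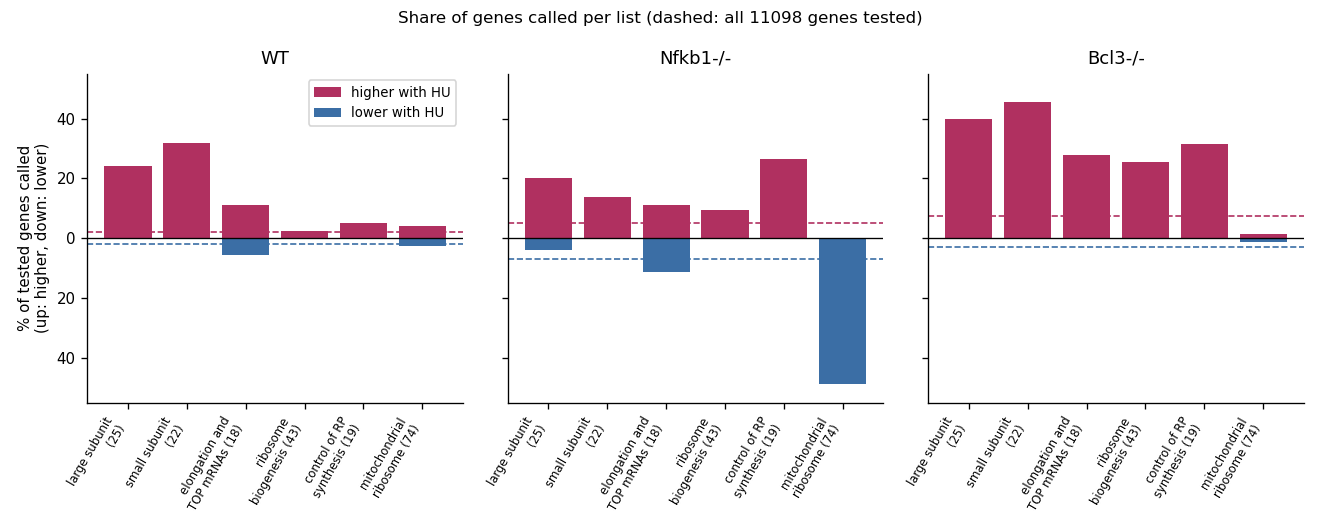
Share of tested genes called higher (upward bars) and lower (downward bars) with HU (y axis, percent) in each list (x axis, number tested in parentheses) for the 3 genotypes, with dashed lines for all 11098 genes tested. Both cytosolic subunits stand above the dashed line in each genotype, and the mitochondrial ribosome has 36 of 74 genes called lower in *Nfkb1-/-* muscle.

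In bulk muscle a change in the number of cells of a type and a change of RNA per cell cannot be told apart. The summed intensity of 16 macrophage markers was 506 to 630.5 with WB and 568.1 to 846.1 with HU in wild type, 651.3 to 841.9 and 621.1 to 1128 in *Nfkb1-/-*, and 3775 to 4817 and 3545 to 4100 in *Bcl3-/-*. None of the 16 was called with unloading in any genotype, none was at 0, and all 16 changes were positive in wild type, 10 in *Nfkb1-/-* muscle and 3 in *Bcl3-/-*. The median change of these markers was 0.31 in wild type, 0.05 in *Nfkb1-/-* muscle and -0.17 in *Bcl3-/-*. Wild type HU replicate 1, the highest array for both subunits, was also the highest for the mean over macrophage markers (0.70, the others 0.10 to 0.47) and over 9 satellite cell and regeneration markers (0.79, the others 0.03 to 0.12). Without it the median ribosomal protein change in wild type was 0.17. Of 11 fibroblast and tendon markers, 3 were called lower in wild type, 6 in *Nfkb1-/-* muscle and 6 in *Bcl3-/-*, and 0 higher. Over all genes, 1.75%, 7.02% and 2.99% were called lower and 2.18%, 5.22% and 7.5% higher. Of 13 fibre genes, 0 were called in wild type or *Nfkb1-/-* muscle. Of these changes 9 were positive in wild type and 2 in *Nfkb1-/-*. On the *Nfkb1-/-* HU arrays the mean over the 13 genes, minus the WB mean, was -0.20 to -0.08. All WB arrays lay above that (-0.01 to 0.02). In *Bcl3-/-* muscle *Myh2* was called lower (-1.13) and *Actn3* higher (0.25), and 9 of the 13 changes were positive. Of 8 endothelial markers, *Cldn5* was called higher in *Bcl3-/-* (1.27) and *Emcn* lower in *Nfkb1-/-* (-0.74). In each of these genotypes 3 of the 8 changes were positive, with medians of -0.04 in *Bcl3-/-* and -0.10 in *Nfkb1-/-*. *Myf5*, of the 9 satellite cell markers, was called higher in *Bcl3-/-* (0.53), where 4 of the 9 changes were positive and the median was -0.006. *Adipoq*, 1 of 3 adipocyte markers tested, was called higher in *Nfkb1-/-* (0.75), where 2 of the 3 changes were positive. *Mbp*, the Schwann cell marker tested, was called higher in *Nfkb1-/-* (0.84) and *Bcl3-/-* (0.96) and had 0.52 in wild type. The part of other cell types in the ribosomal protein changes was not tested.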

How the data were processed

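Each array was hybridised with labelled total RNA of 1 mouse. Per the labels, GCOS and RMA are the tools the submitters' processing notes name, without versions. The deposited table holds RMA intensities on a linear scale. The *Bcl3-/-* arrays are on another scale in it, for a reason that the labels do not give. Here the intensities were put on a log2 scale from the deposited values, and limma 3.58.1 (R 4.3.3) fitted the means of all 6 groups together, with Benjamini-Hochberg adjustment over 19294 of 22626 probe sets (intensity above 20 on at least 4 arrays). The threshold was an adjusted p of 0.05. Symbols came from GEO's platform annotation, and a probe set with several genes was not named.

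Members and lists were chosen with earlier results of these data known. Named genes were the 5 called genes of largest change per genotype and direction, genes with a called difference, paralogs with their parents, the stalk proteins, *Rpsa*, *Rps6* and *Rpl11*, up to 4 called genes per list, and those members the study lists as targets (*Rpl14*, *Rpl27*, *Rps18* and *Rps27l*), which are no independent choice. Further genes were named after their values were seen, where a small count needed them. Alternatives changed the filter, variance model, array weights, normalization, log offset, replicate block, test, arrays and members; leaving out paralogs or dim probe sets (mean log2 under 7) was chosen after seeing the data. The methods' t-test was run on linear intensities. Labels call the arrays biological replicates. The scripts were tested on simulated data.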

Additional observations from a re-analysis of the deposited data

Results flagged for a closer look

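Of 168 groups of 4 arrays, 9 held an array set apart from the other 3 by more than Dixon's 95% critical value allows, and chance gives such an array in about 1 of 20 groups. In wild type muscle these were *Rpl3l* on HU replicate 1 (750.7, the others 1008 to 1018), *Rpl7* on the same array (1405, the others 1171 to 1194) and *Rpl4* on WB replicate 4 (1780, the others 1825 to 1833). In WB *Nfkb1-/-* muscle they were *Rplp2* (1465, the others 1338 to 1359) and *Rpl37a* (1962, the others 1708 to 1747) on replicate 3, *Rpl7* on replicate 2 (1040, the others 1116 to 1125) and *Rpl39* on replicate 1 (14.45, the others 13.78 to 13.89). In *Bcl3-/-* muscle they were *Rpl22l1* on WB replicate 2 (3021, the others 2448 to 2491) and *Rpsa* on HU replicate 1 (6466, the others 5801 to 5825).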

How the results depend on the processing

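Counts of called probe sets moved with the processing, in most cases by more than the medians. Against 24 higher in wild type, with 11 for *Nfkb1-/-* and 35 for *Bcl3-/-*, the filter of the study left 7, 2 and 8 members tested with 5, 0 and 3 higher, fits on the groups compared gave 3, 7 and 15, and the methods' t-test gave 0, 6 and 6. A variance trend with robust fitting gave 38 in wild type and 18 in *Nfkb1-/-*, array weights 42 and 29, and, in *Nfkb1-/-*, repeated quantile normalization 19 and that within each genotype 23. An offset of 16 before the log gave 60 in *Bcl3-/-*. Without probe sets of suffix _x_at or _s_at the counts were 11, 7 and 20 of 53, and with several-gene probe sets 61, 19 and 79 of 193. Lower calls (0, 2 and 1) became 1 in wild type and 1 in *Nfkb1-/-* under the filter of the study, 4 in wild type and 2 in *Bcl3-/-* with array weights, 0 in both knockouts under the t-test, without paralogs or without dim probe sets, and 0 in *Bcl3-/-* when fitted on its own groups. The response difference between wild type and *Nfkb1-/-* (0 calls) had 2 calls under the filter of the study, with the filter on the genotypes compared and with the variance trend, 3 with array weights, and 1 with centring or the offset. That between wild type and *Bcl3-/-* (0) had 1 with the offset. The WB difference (1) had 0 calls on the groups compared, with the trend, the offset or the t-test, without suffixed or dim probe sets, and 2 with array weights or several-gene probe sets. Under the filter of the study the medians were 0.43 in wild type, -0.32 in *Nfkb1-/-* muscle and -0.0397 in *Bcl3-/-*, and large minus small was -0.39 in wild type and -0.69 in *Bcl3-/-*, with no value in *Nfkb1-/-*, where 2 probe sets remained tested. Without dim probe sets, large minus small in *Bcl3-/-* was 0.0594. The causes were not tested beyond the fewer probe sets that a filter leaves.

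Leaving out 1 array at a time, higher calls ran from 14 to 32 in wild type, 4 to 16 in *Nfkb1-/-* muscle and 24 to 42 in *Bcl3-/-*, and lower calls from 0 to 1, 1 to 3 and 0 to 1. The response differences had 0 to 2 calls against *Nfkb1-/-* and 0 to 0 against *Bcl3-/-*, and the WB difference 0 to 1. Medians ran from 0.17 to 0.25, 0.10 to 0.17 and 0.21 to 0.25, and large minus small from -0.0497 (without wild type HU replicate 4) to 0.01, 0.03 to 0.05 and -0.01 to 0.01.

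Replicate numbers are shared between groups, but same-numbered arrays correlated by only -0.173 to 0.222 in their deviations, so they were not taken as pairs. With the replicate number as a block, 20 probe sets were called higher in wild type, 10 in *Nfkb1-/-* muscle and 34 in *Bcl3-/-*.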
